A study of Homo sapiens with 2 samples.

Results

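Homologous recombination and damage signalling genes were followed in C4-2 cells, an androgen receptor-positive human prostate cancer line derived from LNCaP, 48 h after transfection with miR-99a or with si-GL2. si-GL2 is the control siRNA, named as one against firefly luciferase. The control shares the transfection, and its RNA chemistry was not compared with that of the transfected miR-99a. Both groups are the same established line grown in serum-containing medium and transfected with RNAiMax, and each is 1 array of total RNA, so every value below is a single measurement and no difference has a replicate error or a p-value. The genes were chosen as a list of 33 members and measured by every Affymetrix probe set that the platform annotation gives to 1 of them and to no other gene. This gave 68 of the 54675 probe sets on the array, and 28 of the 19775 genes it names. BRCA2, RBBP8, FANCA and FANCD2 are not analysed here, and ATRIP was reached only by probe sets that it shares with TREX1.

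A broken DNA end is found by the MRE11-RAD50-NBN complex, trimmed to single-stranded DNA by nucleases such as EXO1, and coated by replication protein A, the heterotrimer of RPA1, RPA2 and RPA3. The kinases ATM, which answers to breaks, and ATR, which answers to RPA-coated DNA, then signal through CHEK2 and CHEK1 to hold the cell cycle. MDC1, RNF8, RNF168 and TP53BP1 meanwhile write or bind marks on the chromatin around the break. BRCA1 with BARD1 and PALB2, and the group of RAD51B, RAD51C, RAD51D, XRCC2 and XRCC3, then act in the repair of the break from the sister chromatid. Of these steps, resection and recombination run mainly in S and G2 phase. Defects in the pathway are known in a share of advanced prostate cancers.

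The mature 5p strand of miR-99a is shown with its relatives miR-100 and miR-99b because all carry the same seed, bases 2 to 8, by which a microRNA finds its targets (capitals; RefSeq, GRCh38.p14). The labels name no arm of the transfected miR-99a, and the si-GL2 sequence is not given in the sources used here.
hsa-miR-99a-5p (chr21:16539101-16539122, + strand): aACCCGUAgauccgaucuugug
hsa-miR-100-5p (chr11:122152275-122152296, - strand): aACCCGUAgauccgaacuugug
hsa-miR-99b-5p (chr19:51692618-51692639, + strand): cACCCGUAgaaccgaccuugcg

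The deposited signal is a linear intensity. Differences are miR-99a minus si-GL2 on the log2(signal + 16) scale, on which a dim probe set appears to change less than it did, and a 1.5-fold difference is 0.58. A probe set counts as expressed when its mean over both arrays reaches the median of all probe sets, a signal of 47.2; this is a limit of size and not a detection call. The arrays had median signals of 47.8 (miR-99a) and 47.4 (si-GL2), and the 18 hybridisation spike probe sets differed by between -0.12 and 0.06. Expressed probe sets of the same gene differed from each other with a pooled SD of 0.20 over 5842 genes, which measures the probes and not the cultures. Of the 9 luminal prostate markers, 7 were measured and all 7 were expressed on these arrays, with summed signals of 28266 (miR-99a) and 28250 (si-GL2). Of the markers of other cell types, 2 of 4 leukocyte, 4 of 5 fibroblast and 3 of 5 endothelial genes were above the limit, with summed signals of 177, 483 and 408 after miR-99a against 151, 428 and 382 after si-GL2. PTPRC, CD14, PDGFRB, CDH5 and VWF were below it, while CD3E, CSF1R, COL1A1, COL1A2, DCN, LUM, PECAM1, ROBO4 and TIE1 were above it, and COL1A1 read 230 with miR-99a and 233 with si-GL2. Any part of such cells in the results was not tested, and in bulk RNA a difference in every cell and one in a share of the cells cannot be told apart.

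Most of the pathway's mRNAs lay close to the control after miR-99a, with RPA1 higher and BARD1 lower. All 28 measured genes were expressed by their brightest probe set, and 56 of the 68 probe sets were expressed. Of these 56 probe sets, 2 were at least 1.5-fold higher, both of RPA1, and 2 at least 1.5-fold lower, both of BARD1. Over all 22401 expressed probe sets with 1 gene name the shares were 1.53% higher and 2.76% lower. Of the 56 member probe sets 62.5% lay below 0, against 54.0% of all expressed probe sets. By brightest probe set 1 of 28 genes was 1.5-fold higher and 1 was 1.5-fold lower, against 1.21% and 2.90% of 12218 expressed genes. Among 28 genes a count of 1 in either direction cannot be told apart from these shares. The median difference of the 28 genes was -0.17 and 19 lay below 0, while the median of all expressed genes was -0.03 and 56.3% lay below 0. As means over all probe sets of each gene the member median was -0.05. None of the 12 probe sets below the limit was 1.5-fold apart; they ranged from -0.45 to 0.47.

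**Figure D1:**
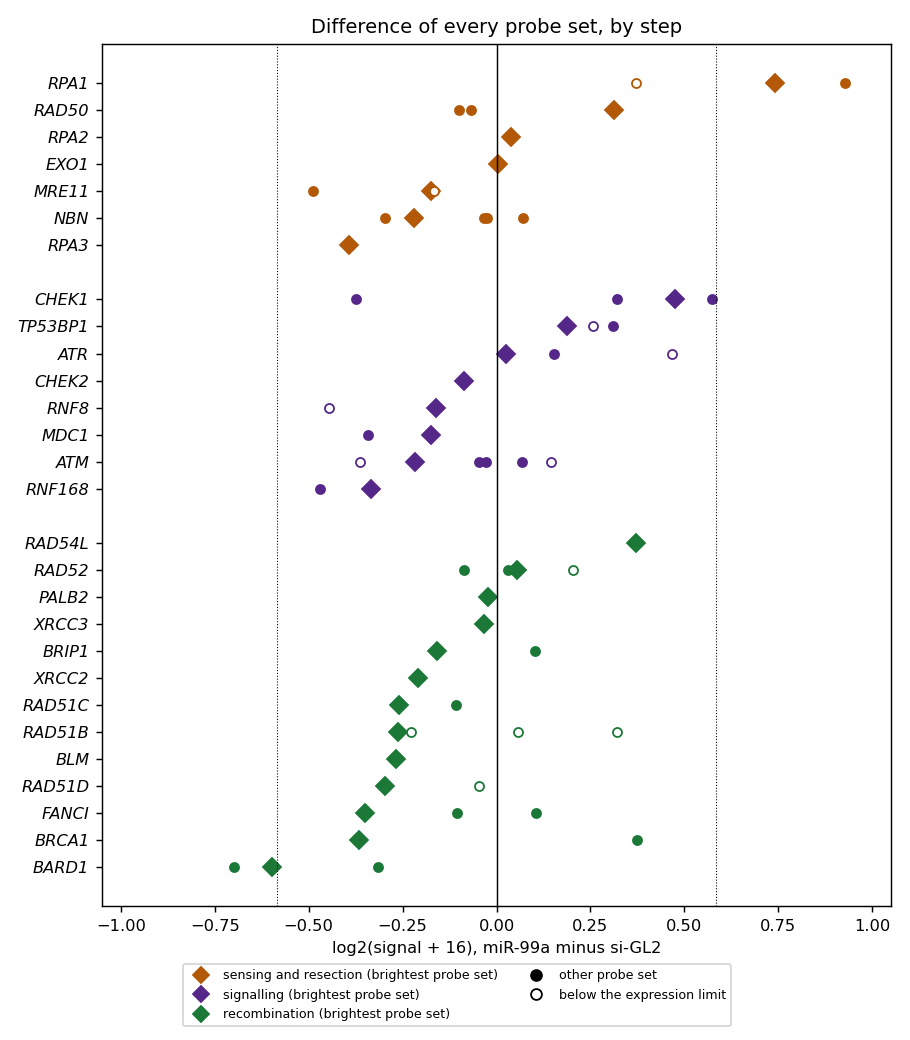
Difference (miR-99a minus si-GL2, log2(signal + 16), x axis) of all 68 probe sets of the 28 measured genes (y axis), grouped by step, with 1 array per condition. Diamonds are the brightest probe set of a gene, circles its others, open circles lie below the expression limit and dotted lines mark 1.5-fold; only RPA1 and BARD1 have points past the lines.

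RPA1 encodes the large subunit of replication protein A, the part that binds single-stranded DNA most tightly. Its brightest probe set read 1618 with miR-99a and 962 with si-GL2, a difference of 0.74 or 1.67-fold. The second read 1241 with miR-99a and 645 with si-GL2, a difference of 0.93, and a dim one, below the limit, 38.9 with miR-99a and 26.5 with si-GL2 (0.37). All 3 were higher on the miR-99a array, and the mean over them was 0.68. By its brightest probe set RPA1 was the 56th highest of 12218 expressed genes. Among 5842 genes with a second expressed probe set, 0.462% had the 2 brightest both at least 1.5-fold higher, RPA1 among them.

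The other subunits of the heterotrimer did not share the difference of RPA1. RPA2, the subunit phosphorylated by the damage kinases, read 674 with miR-99a and 657 with si-GL2 (0.04). RPA3, the smallest subunit, read 2600 with miR-99a and 3420 with si-GL2, a difference of -0.39. Each was measured by 1 probe set. The transcripts of the 3 subunits of this complex were thus above, near and below the control on the miR-99a array.

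**Figure D2:**
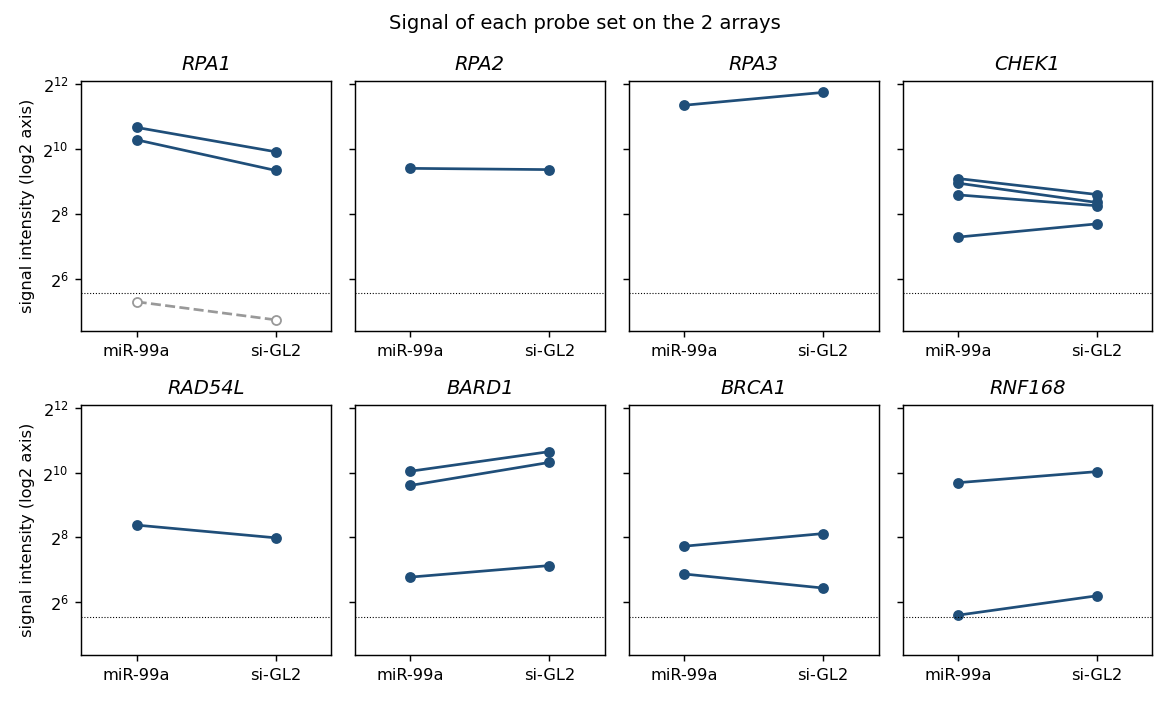
Signal intensity (log2 axis) of every probe set of 8 member genes on the miR-99a array (left point of each line) and the si-GL2 array (right point), 1 array each. Grey dashed lines with open points are below the expression limit (dotted line); RPA1 slopes down to the control and BARD1 up in all of their probe sets, while the lines of BRCA1, and of CHEK1, run in both directions.

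The end-sensing complex showed small and divided differences. RAD50, the ATPase that tethers the ends, read 674 with miR-99a and 539 with si-GL2 by the brightest probe set (0.31), but its other 2 probe sets were at -0.07 and -0.10, and the mean was 0.05. NBN, which brings ATM to the complex, read 608 with miR-99a and 710 with si-GL2 (-0.22), with its other 4 probe sets between -0.30 and 0.07. MRE11, the nuclease, lay at -0.17, its second probe set at -0.49 and a probe set below the limit at -0.17. Across the complex 8 of 10 expressed probe sets lay below 0, against 54.0% of all expressed probe sets, with a median of -0.08. EXO1, the nuclease of long-range resection, was at 0.00. The 7 measured sensing and resection genes had a median of 0.00, with 3 below 0 and RPA1 the 1 gene past 1.5-fold.

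In the signalling step no gene passed 1.5-fold in either direction, and CHEK1 lay farthest above the control. CHEK1, the effector kinase of ATR, read 542 with miR-99a and 386 with si-GL2 by the brightest probe set (0.48). Its second read 492 with miR-99a and 325 with si-GL2, a difference of 0.57 just short of 1.5-fold, and another was at 0.32. The dimmest went the other way, at 155 with miR-99a and 206 with si-GL2 (-0.37), and the mean over all 4 was 0.25. CHEK1 was the 279th highest of the expressed genes. ATR itself was near the control, at 0.02 by its brightest probe set and 0.15 by its second, with a probe set below the limit at 0.47.

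ATM, the kinase at the head of the other arm, read 703 with miR-99a and 820 with si-GL2 by the brightest probe set (-0.22). Its other 3 expressed probe sets lay between -0.05 and 0.07, those below the limit at -0.36 and 0.14, and the mean over 6 was -0.07. CHEK2, the effector kinase of ATM, was at -0.09. The 3 probe sets that ATRIP, the partner of ATR, shares with the exonuclease gene TREX1 lay between -0.17 and 0.06, and cannot be assigned to either.

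Among the genes that write or bind chromatin marks TP53BP1 lay above the control and the other 3 below it. TP53BP1, which encodes the end-protecting factor 53BP1, read 509 with miR-99a and 445 with si-GL2 (0.19), and all 4 of its probe sets were above 0, up to 0.31. RNF168, the ubiquitin ligase that builds the mark 53BP1 binds, read 824 with miR-99a and 1044 with si-GL2 (-0.34), and its second probe set read 48.5 with miR-99a and 73.4 with si-GL2 (-0.47). RNF8, the ligase acting before RNF168, was at -0.16, with a probe set below the limit at -0.45. MDC1, the scaffold that recruits RNF8, was at -0.17 and -0.34. All 6 probe sets of RNF168, RNF8 and MDC1 were lower on the miR-99a array, as were 54.0% of all expressed probe sets. The 8 signalling genes together had a median of -0.12 with 5 below 0. Without probe sets marked _x_ or _s_, which can bind related transcripts or several of them, the signalling median was 0.15. That setting leaves out CHEK2, MDC1 and RNF8 altogether, because all of their probe sets are so marked.

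The recombination genes held the lowest member and mostly lay below the control. Of 13 measured genes 11 were below 0, and the median was -0.26 by brightest probe sets. As means over all probe sets of each gene it was -0.03, since several dimmer probe sets of these genes lay near or above 0. BARD1, the obligate partner of BRCA1 in its ubiquitin ligase, read 1053 with miR-99a and 1601 with si-GL2 by the brightest probe set (-0.60). Its second read 777 with miR-99a and 1271 with si-GL2 (-0.70), and its dimmest 110 with miR-99a and 140 with si-GL2 (-0.31). All 3 were lower on the miR-99a array, and BARD1 was the 330th lowest of 12218 genes. The 2 brightest probe sets were both at least 1.5-fold lower in 0.839% of the 5842 genes with such a pair, BARD1 among them. Its brightest probe set lies just past 1.5-fold: BARD1 fell short as the mean of its probe sets (-0.54), with a pseudocount of 64 (-0.58) and after quantile normalization (-0.58).

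BRCA1, by contrast, gave no clear direction. Its brightest probe set read 212 with miR-99a and 278 with si-GL2 (-0.37), the second 117 with miR-99a and 86.7 with si-GL2 (0.37), and the mean over both was 0.00. The second is marked _x_ and may bind other transcripts. PALB2, a binding partner of BRCA1, was at -0.02. BRIP1, the helicase that binds BRCA1, was at -0.16 and 0.10.

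The 5 related genes RAD51B, RAD51C, RAD51D, XRCC2 and XRCC3, whose products work together in strand exchange, all lay below 0 by brightest probe set. Groups of members within a step, such as this one, were formed after the values were known. RAD51D was at -0.30, RAD51B and RAD51C both at -0.26, XRCC2 at -0.21 and XRCC3 at -0.03, and none was 1.5-fold apart. Their 6 expressed probe sets were all below 0, with a median of -0.23, while 54.0% of all expressed probe sets lay below 0. RAD51B rests on signals close to the limit, 43.8 with miR-99a and 55.7 with si-GL2, and its 3 dimmer probe sets ranged from -0.23 to 0.32; the dimmer probe set of RAD51D was at -0.05.

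RAD54L, the motor protein that drives strand invasion, was the highest gene of this step, at 333 with miR-99a and 254 with si-GL2 (0.37), by 1 probe set. RAD52, which anneals single strands, read 113 with miR-99a and 108 with si-GL2 (0.05), and its 4 probe sets lay between -0.09 and 0.20. The helicase BLM, which undoes recombination intermediates, was at -0.27 by 1 probe set. FANCI, the partner of FANCD2 in crosslink repair, lay at -0.35 by the brightest of its probe sets, and at -0.10 and 0.11 by the others.

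Agreement within a gene sets how far these values can be read. Of 16 members with at least 2 expressed probe sets, 5 had all of them below 0, 3 had all above 0 and 8 of 16 were split, against 43.8% among all 5842 such genes. The genes with all expressed probe sets lower were BARD1, RNF168, MDC1, MRE11 and RAD51C, and those with all higher were RPA1, TP53BP1 and ATR. The other 12 members had 1 expressed probe set and no such check. The widest gap within a member was in CHEK1, 0.95 between its highest and lowest probe sets.

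**Figure D3:**
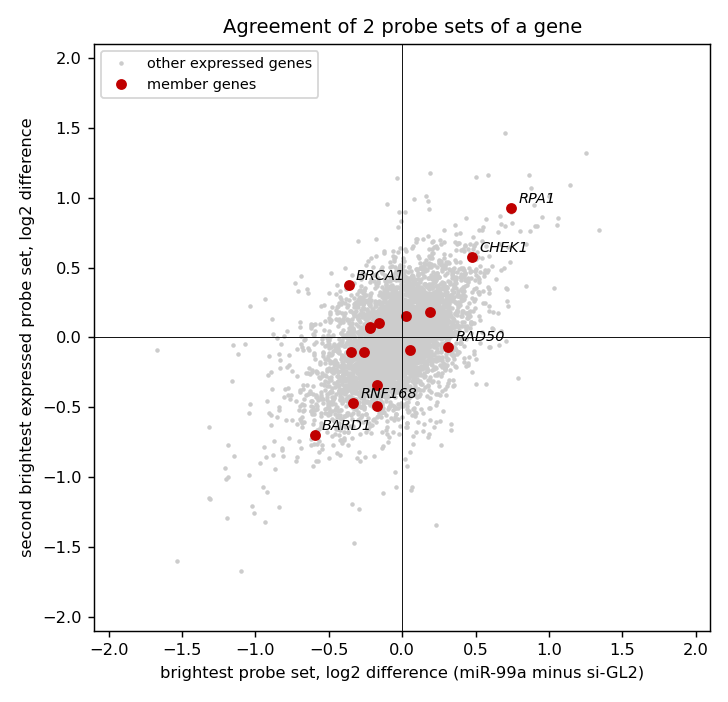
Difference (miR-99a minus si-GL2, log2(signal + 16)) of the second brightest expressed probe set (y axis) against the brightest (x axis) for 5842 genes, with 16 member genes in red and 1 array per condition. RPA1 and CHEK1 lie in the upper right quadrant and BARD1 in the lower left, while BRCA1 lies in the upper left, where the 2 probe sets disagree.

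The promoters of RPA1 and BARD1 are shown because these members lay farthest above and below the control. Each run is the 250 bases before the annotated start, on the gene's own strand (RefSeq, GRCh38.p14). Capitals mark matches on either strand to CCAAT, the box bound by NF-Y; the E2F words TTTGGCGC, TTTCCCGC, TTTCGCGC and TTTGCCGC and the cell cycle words TTTGAA and TTCGAA were searched as well. RPA1 had 1 match, a CCAAT at bases -79 to -75 from the start, and BARD1 had 0 matches to any of them.
RPA1 (chr17:1829755-1830004, + strand): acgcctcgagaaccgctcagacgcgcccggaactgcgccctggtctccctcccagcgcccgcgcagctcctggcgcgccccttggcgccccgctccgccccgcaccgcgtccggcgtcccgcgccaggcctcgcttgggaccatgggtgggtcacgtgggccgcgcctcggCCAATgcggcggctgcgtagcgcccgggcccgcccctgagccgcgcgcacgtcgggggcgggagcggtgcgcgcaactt
BARD1 (chr2:214809684-214809933, - strand): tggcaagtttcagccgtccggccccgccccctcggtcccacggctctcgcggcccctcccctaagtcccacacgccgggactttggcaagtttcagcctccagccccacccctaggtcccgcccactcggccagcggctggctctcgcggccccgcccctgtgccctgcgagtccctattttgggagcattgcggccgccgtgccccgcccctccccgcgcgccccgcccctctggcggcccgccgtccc

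Promoter entries were found for 29 member genes, 41 entries in all, since some genes have several annotated starts. CCAAT was present in 21 of 41 entries (51.2%) and in 32.0% of all 35116 promoters. The E2F words were present in 2.44% of member entries and 2.79% of all, and the cell cycle words in 7.32% and 14.3%. Among the 24 measured members with an entry, the median difference was -0.12 in the 14 with a CCAAT and -0.23 in the 10 without one, and 10 of the 14 were below 0. The 14 held RPA1 and CHEK1 as well as BRCA1, BLM and ATM. A match is a string of letters in this window and no evidence of binding.

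Further genes of the pathway followed the same picture of small differences. Of 62 listed genes 60 were measured and 59 expressed, with a median of -0.05, 37 (62.7%) below 0, 1 at least 1.5-fold higher and 1 at least 1.5-fold lower. Over all expressed genes 56.3% were below 0, 1.21% higher and 2.90% lower, so these counts are near the background. The 1 higher gene was RMI2, a subunit of the complex in which BLM dissolves joined chromosomes, at 263 with miR-99a and 162 with si-GL2 (0.65), by 1 probe set. The helicase-nuclease DNA2, which resects ends with BLM, read 235 with miR-99a and 181 with si-GL2 (0.35), and the nuclease scaffold SLX4 69.8 with miR-99a and 52.1 with si-GL2 (0.33, or -0.01 as the mean of its probe sets).

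The lowest of the further genes were CDC25A, WEE1 and SFR1. CDC25A, the phosphatase that CHEK1 marks for destruction, read 138 with miR-99a and 218 with si-GL2 (-0.60, or -0.14 as the mean of its 3 probe sets). WEE1, the kinase that restrains CDK1, read 1010 with miR-99a and 1490 with si-GL2 (-0.55), with its second probe set at -0.39. The related phosphatase genes CDC25B and CDC25C were at -0.23 and -0.22, above several other further genes. SFR1, a homologous recombination factor, read 497 with miR-99a and 646 with si-GL2 (-0.37).

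The Fanconi anaemia genes of the list mostly lay slightly below the control, with a median of -0.12 over 10 expressed genes, 9 of them below 0, down to WDR48, a partner of the deubiquitinase USP1, at -0.34. By brightest probe set the 4 mitotic entry control genes, CDC25A, CDC25B, CDC25C and WEE1, were all below 0, with a median of -0.39. The remaining subgroups of the further genes were spread around 0. The 8 end-joining genes had a median of 0.00, from the polymerase POLQ at -0.22 to the DNA damage sensor PARP1 at 0.28. The 9 genes that activate ATR, among them the clamp subunits RAD9A, RAD1 and HUS1, had a median of -0.02, and the 5 subunits of the BRCA1-A complex one of 0.00. These subgroups, like those of the members within a step, were formed after the values were known.

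Because many of the members are made mainly in cycling cells, proliferation genes are given beside them. The 26 genes had a median of 0.05, with 17 above 0, 1 at least 1.5-fold higher and 0 at least 1.5-fold lower, against 1.21% and 2.90% of all expressed genes. CCNE1, cyclin E1, was highest, at 590 with miR-99a and 381 with si-GL2 (0.61, or 0.27 as the mean of its probe sets). FOXM1, a driver of mitotic genes, was lowest, at 669 with miR-99a and 850 with si-GL2 (-0.34). By brightest probe set 3 of 7 sensing and resection, 5 of 8 signalling and 11 of 13 recombination genes were below 0. Of the proliferation genes 9 of 26 were below 0, against 56.3% of all expressed genes. As means over all probe sets the medians of the recombination and proliferation genes were -0.03 and 0.07, both near 0. The difference between the lists was not tested. Any part of the cell cycle in the member differences was not tested.

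**Figure D4:**
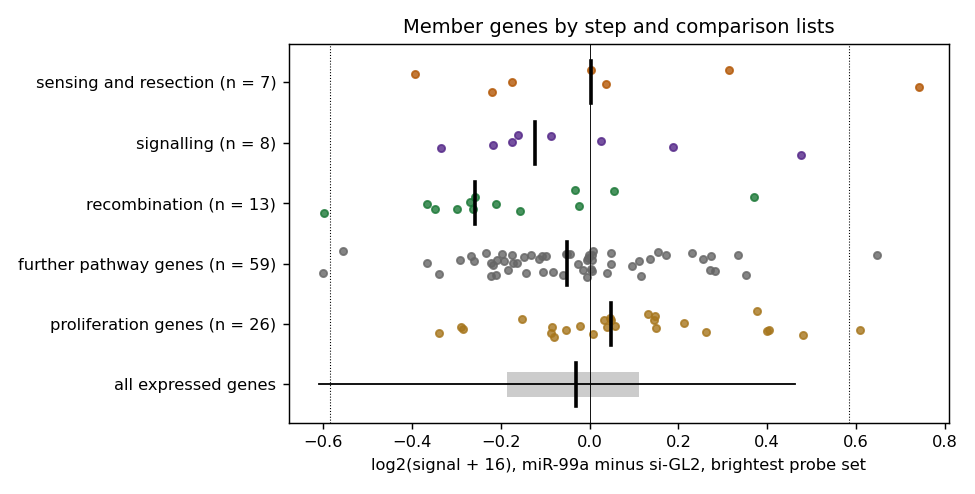
Difference by brightest probe set (x axis, log2(signal + 16), miR-99a minus si-GL2, 1 array per condition) of expressed genes in the 3 steps and in both comparison lists, with black ticks at the medians and dotted lines at 1.5-fold. The lowest row shows all 12218 expressed genes (bar, 25th to 75th percentile; line, central 95%). The median of the recombination genes lies at -0.26 here (-0.03 as means over all probe sets of each gene) and that of all expressed genes at -0.03.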

How the data were processed

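Per the labels, total RNA was taken with Trizol 48 h after transfection and labelled with biotin after Affymetrix's protocol. The authors deposited 1 linear signal intensity per probe set and array; the summarising algorithm and the scaling of the arrays were not given in the sources used here, and detection calls were not used here. The array medians differed by 0.01 on the log2(signal + 16) scale computed here, and values were used as deposited. Of 54675 probe sets, 41091 had 1 gene name in the platform annotation, 1801 had several and the others had none or were controls; 41037 of those with 1 name matched a gene identifier in the RefSeq table of GRCh38.p14. A gene was represented by its brightest probe set, by mean log2 level, and was expressed where that level was at or above the median probe set. Differences of at least 1.5-fold were counted; no test was possible with 1 array per group, so the number of arrays limits precision. All measured members are named; signals are given for members past 1.5-fold and for the 2 highest and 2 lowest of each step, with others chosen after their values were seen. The members and lists were chosen with earlier results of these data known. The fold rule was run on simulated data with planted 2-fold changes and less noise than the probe set SD. That setting is easier than these data, so it does not test the 1.5-fold differences reported here. Alternatives were pseudocounts of 1 and 64, median centring, quantile normalization, 2 other expression limits, a 2-fold rule, averaging a gene's probe sets and omitting those marked _x_ or _s_. Versions were Python 3.11.15 with numpy 2.4.6, matplotlib 3.10.9 and pandas 2.3.3.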

Additional observations from a re-analysis of the deposited data

How the results depend on the processing

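Of 82 recomputed counts and medians, 69 stayed within 1.5 times the count or within the probe set SD of 0.20 of the median, and 13 did not. Among the list medians only that of the recombination genes is larger than this SD, so the others could reach 0 and still count as within it. The member median of -0.17 was -0.05 without _x_ or _s_ probe sets, a setting in which the median of all expressed genes was -0.04. Only 20 member genes counted as expressed in that setting. The members lost were BRCA1, RAD51C, RAD51D, XRCC2, XRCC3, CHEK2, MDC1 and RNF8, all below 0 by brightest probe set. The value of -0.05 is therefore not a median of the same genes as -0.17. RPA1 was the 1 member gene at least 1.5-fold higher under 8 of the 9 alternatives and BARD1 the 1 lower under 5; at 2-fold, 0 member genes and 0 member probe sets passed in either direction. With pseudocounts of 1 and 64 the lower probe sets numbered 4 and 1, and with quantile normalization 1; without probe sets marked _x_ or _s_, 1 probe set was higher. The number of member genes 1.5-fold lower was 0 with a pseudocount of 64, after quantile normalization and as means over probe sets. The median of the signalling genes was 0.15 without _x_ or _s_ probe sets, a setting that leaves out CHEK2, MDC1 and RNF8. That of the recombination genes was -0.034 as means over probe sets. Among single genes RAD50 was at -0.07 without _x_ or _s_ probe sets and ATM at 0.07. At 2-fold 41 of all expressed genes were lower and 17 higher, with a pseudocount of 64 179 and 74. The causes were not tested, beyond the fewer or dimmer probe sets that some alternatives use by construction. No paired analysis was possible because each condition has 1 array, and for the same reason no array could be left out. Signal over background could not be judged without detection calls.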
